A study of Mus musculus with 11 samples.

Results

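The genes described here are the 3 Snail genes (Snai1, Snai2 and Snai3), both Twist genes (Twist1 and Twist2) and both Zeb genes (Zeb1 and Zeb2), the transcription factors best known for driving epithelial-to-mesenchymal transition. The rule takes all members of these families and uses no measured value, although it was set with earlier results of these data known. These are 7 of the 19938 genes that the array annotation names by a single symbol, and each is read by 1 probe. RNA from CD1 outbred mouse embryos at embryonic day 8.5 was hybridised to Affymetrix mouse ST arrays, 5 for neural crest, 3 for neuroepithelium and 3 for paraxial mesoderm. The labels name no mutant allele and no treatment for any group. Cells were cut from frozen sections by laser capture microdissection, and their RNA was amplified before labelling. The title of the study speaks of single cells, but the labels do not say which embryo, or how many cells, an array came from. A p-value here reflects array-to-array spread alone, which may be technical, and is too small if arrays of a tissue shared an embryo. In captured tissue, fewer cells that express a gene and less RNA per cell cannot be told apart.

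Each value is a linear ratio of an array to a reference of the same probe. A gene silent on all arrays and a gene equally active on all arrays both lie near 1, so a ratio gives no expression level and levels cannot be ranked between genes. Of 21789 probes with 1 symbol, 15663 (71.9%) lay within 2-fold of 1 on every array, and 4576 (21.0%) were at least 4-fold high on at least 1 array. The number of probes at least 4-fold high ran from 621 to 1200 on the neuroepithelium arrays, from 429 to 1598 on the crest arrays and from 398 to 1716 on the mesoderm arrays. The tissue labels had limited support from their markers. All 12 paraxial mesoderm markers lay within 2-fold of 1 on every array. Of 10 neuroepithelium markers, 1 was 4-fold high on neuroepithelium array 3, and 0 on neuroepithelium arrays 1 and 2. Outside that tissue, 1 was 4-fold high on each of crest arrays 3, 4 and 5 and on paraxial mesoderm array 2. Of 10 surface ectoderm markers, 2 to 4 were 4-fold high on each neuroepithelium array, none or 1 on each crest array, and 4 on paraxial mesoderm array 2. Of 8 primitive erythroid markers with values, 7 were 4-fold high on paraxial mesoderm array 1, where the ratios of the 8 summed to 663. On paraxial mesoderm array 3, 2 gut endoderm and 2 notochord markers were 4-fold high, with Foxa2 in both lists.

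Neural crest cells form at the border of the neural plate, lose their epithelial junctions and leave the neuroepithelium to migrate. Snail and Zeb proteins are zinc-finger repressors that bind E-box sequences and silence junction genes such as those for cadherins and claudins. Twist proteins are basic helix-loop-helix (bHLH) factors that bind E-boxes with E-protein partners, and Id proteins block such pairs. In the mouse head, Snai1 and Twist1 transcripts are known from cranial crest, and Twist1 also from head mesoderm. These sites are not the only ones known for either gene.

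Snai1 was high on every crest array and near its reference everywhere else. Its ratios were 51.0, 47.0, 82.1, 54.9 and 41.2 on neural crest arrays 1 to 5. They were 1, 1.16 and 0.800 on the neuroepithelium arrays and 0.890, 0.856 and 1.17 on the paraxial mesoderm arrays. The lowest crest array thus stood far above the highest of the other 6, and the groups did not overlap, as for 1.41% of all probes against neuroepithelium and 1.40% against mesoderm. Crest exceeded neuroepithelium by 5.78 on the log2 scale (SE 0.23, 95% confidence interval 5.27 to 6.29), a 55.1-fold ratio of geometric means, with an adjusted p of 1.01e-05 in limma. Crest exceeded paraxial mesoderm by 5.80 (SE 0.23, interval 5.29 to 6.31, adjusted p = 2.91e-05). Paraxial mesoderm and neuroepithelium differed by -0.019, with an interval from -0.59 to 0.55. In that comparison 0 of the 7 genes passed and 0 were free of overlap, where 0.0138% of all probes were called lower in mesoderm, and 2.88% lay higher and 3.97% lower without overlap. Snai1 was the only one of the 7 genes that passed the threshold of 0.05 in any comparison. Over all probes, 0.00918% were called higher in crest than in neuroepithelium, and 0.00918% higher than in mesoderm. The calls rest on how the variance is modelled. With a prior variance that follows the mean ratio, the same differences had adjusted p-values of 0.115 and 0.562.

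**Figure D1:**
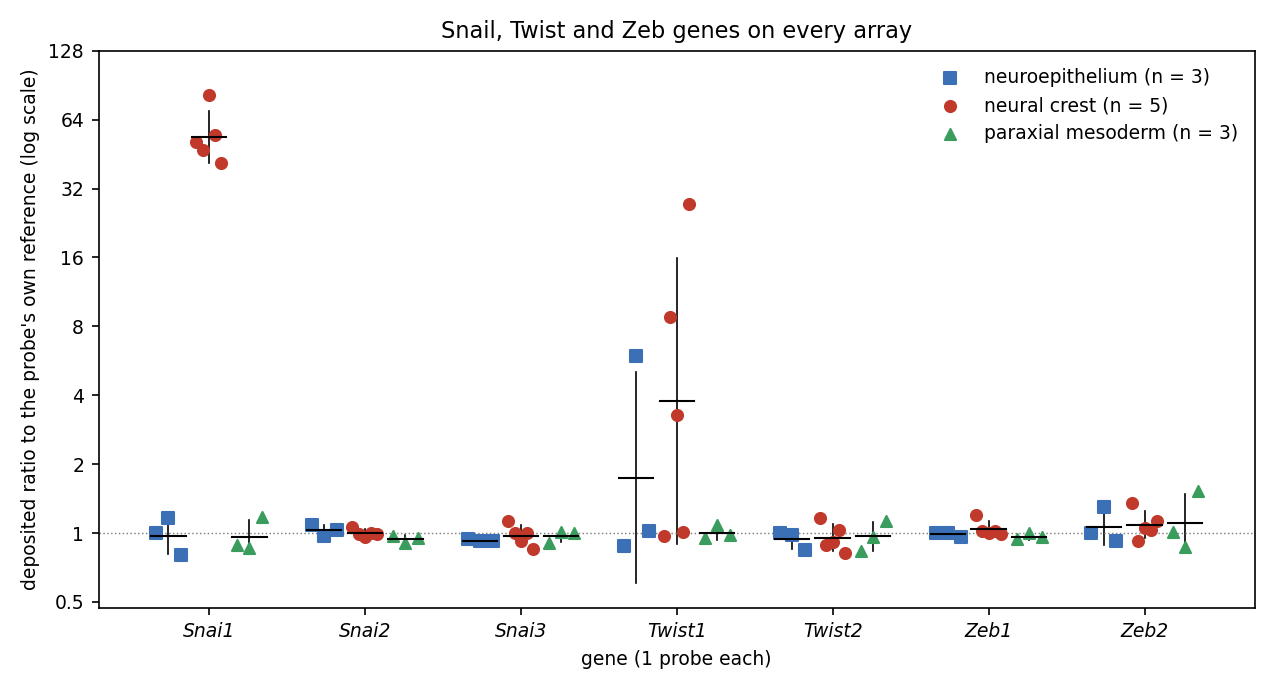
Deposited ratio (log scale, relative to each probe's own reference) of the 7 genes on each of the 11 arrays, 1 point per array, by tissue, with the geometric mean and its SD on the log scale as bars. Snai1 lies between 41.2 and 82.1 on the 5 crest arrays and between 0.800 and 1.17 on the other 6, Twist1 is scattered within crest and neuroepithelium, and the other 5 genes stay between 0.820 and 1.52.

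Few probes shared this pattern. Among 21789 probes, 7 (0.0321%) were at least 4-fold high on all 5 crest arrays. These were Snai1, Ddx47, Mrps6, Ppp2r2a, Smarcb1, Plekhj1 and Pepd. Snai1 had the highest crest mean of the 7. Its crest SD of 0.376 on the log2 scale was the smallest, but that of Ppp2r2a was nearly the same (0.378). Only Snai1 and Ddx47, which encodes an RNA helicase, also lay within 2-fold of 1 on the 6 other arrays, or 0.00918% of probes. Ddx47 stood at 23.5, 37.8, 33.1, 108 and 21.0 on the crest arrays. This pattern was defined after the Snai1 values were seen and has no test.

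The proximal promoter of Snai1 is shown because the Snail proteins bind the E-box CAGGTG, and Snai1 was the one such repressor gene with a difference between tissues. The sequence is the 250 bases before the start of the gene, from RefSeq GRCm38.p6, chr2:167537945-167538194 on the plus strand, and capitals mark the motif, read as CACCTG on the printed strand.
Snai1: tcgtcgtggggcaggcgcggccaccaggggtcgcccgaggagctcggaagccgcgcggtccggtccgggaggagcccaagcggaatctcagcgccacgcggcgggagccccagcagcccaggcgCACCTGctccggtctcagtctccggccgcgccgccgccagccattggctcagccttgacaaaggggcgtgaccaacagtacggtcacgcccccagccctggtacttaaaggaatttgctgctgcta
The motif begins 126 bases before the start. CAGGTG or CACCTG was found in 5657 of 32851 promoter windows of this length (17.2%). RefSeq windows were given for 4 of the 7 genes, namely Snai1, Twist1, Twist2 and Zeb2, and of their 7 windows only this one held the motif. A match describes these letters and is no evidence of binding.

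Snai2 and Snai3, the paralogs of Snai1, did not move with it. Snai2 (also called Slug) is a crest marker in chick and is known to act in later mouse mesenchyme. Its ratios were 1.06, 0.986, 0.961, 1 and 0.990 on the crest arrays, 1.08, 0.972 and 1.03 on the neuroepithelium arrays, and 0.972, 0.905 and 0.955 on the mesoderm arrays. The crest range overlapped both other groups. The log2 difference of crest was -0.040 from neuroepithelium (interval -0.15 to 0.07) and 0.082 from mesoderm (interval -0.02 to 0.19). Snai2 was lower in mesoderm than in neuroepithelium by a log2 difference of -0.12, at an unadjusted p of 0.046 and an adjusted p of 1 in limma, which is no call. Snai3 ran from 0.850 to 1.13 in crest, from 0.918 to 0.937 in neuroepithelium and from 0.907 to 1.01 in mesoderm. Its crest differences were 0.073 (interval -0.12 to 0.26) and 0.0016 (interval -0.19 to 0.19). These intervals leave out a change of the size seen for Snai1, in the ratios as deposited.

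Twist1 was high on some arrays of crest and neuroepithelium and on none of mesoderm. Its crest ratios were 0.967, 8.79, 3.29, 1.01 and 27.3, its neuroepithelium ratios 0.874, 5.92 and 1.02, and its mesoderm ratios 0.950, 1.09 and 0.980. Crest arrays 1 and 4 were thus as near to the reference as mesoderm, and neuroepithelium array 2 lay above 3 of the 5 crest arrays. The log2 means were 1.92 ± 2.07 (SD, n = 5) in crest, 0.80 ± 1.53 (n = 3) in neuroepithelium and 0.01 ± 0.10 (n = 3) in mesoderm. The difference of crest was 1.12 from neuroepithelium (SE 1.15, interval -1.50 to 3.73) and 1.91 from mesoderm (interval -0.70 to 4.52), each with an adjusted p of 1 in limma. Neither difference exceeded the spread between crest arrays. Without neuroepithelium array 2 the difference from neuroepithelium was 2.00, and without crest array 5 it was 0.40. For 26131 of 28856 probes exactly 1 array stood at 1, but for Twist1 no array did. Neuroepithelium array 2 and crest arrays 3 and 5 stood at 1 for only 3, 5 and 2 probes, and crest array 2 for 3988. Twist1 was more than 2-fold above 1 on each of these arrays, and the part of the scaling in its values was not tested. Crest arrays 2, 3 and 5, on which Twist1 was more than 2-fold above 1, also had the most 4-fold high probes of the crest arrays (1221, 1118 and 1598, against 429 and 435 on arrays 1 and 4), and the part of this in the Twist1 values was not tested. Over all probes, 111 (0.509%) were at least 4-fold high on neuroepithelium array 2 and crest arrays 2 and 5 together, and for 26 of them (0.119%) the mesoderm arrays also stayed within 2-fold of 1.

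Twist2, the close paralog known from dermis and later mesenchyme, stayed between 0.820 and 1.16 on all arrays. Its crest values were 1.16, 0.887, 0.909, 1.03 and 0.820, around its neuroepithelium values of 1, 0.982 and 0.843 and its mesoderm values of 0.837, 0.961 and 1.13. The crest differences were 0.025 (interval -0.28 to 0.33) and -0.019 (interval -0.32 to 0.28). Twist2 therefore showed neither the Snai1 pattern nor the array-to-array scatter of Twist1.

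Zeb1 and Zeb2 were near their references throughout. Zeb2 (also called Sip1) is required for crest delamination in the mouse head, and Zeb1 represses Cdh1 in many carcinoma cells. Zeb2 stood at 1.35, 0.926, 1.06, 1.03 and 1.13 in crest, at 1, 1.30 and 0.921 in neuroepithelium and at 1.01, 0.865 and 1.52 in mesoderm. Its highest value was on paraxial mesoderm array 3, and all 3 groups overlapped. The crest differences were 0.038 (interval -0.41 to 0.49) and -0.017 (interval -0.47 to 0.43). Zeb1 ran from 0.995 to 1.20 in crest, from 0.959 to 1.00 in neuroepithelium and from 0.940 to 1 in mesoderm. Its crest differences were 0.082 (interval -0.061 to 0.23) and 0.11 (interval -0.031 to 0.26). For both Zeb genes all 3 comparisons had an adjusted p of 1 in limma.

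**Figure D2:**
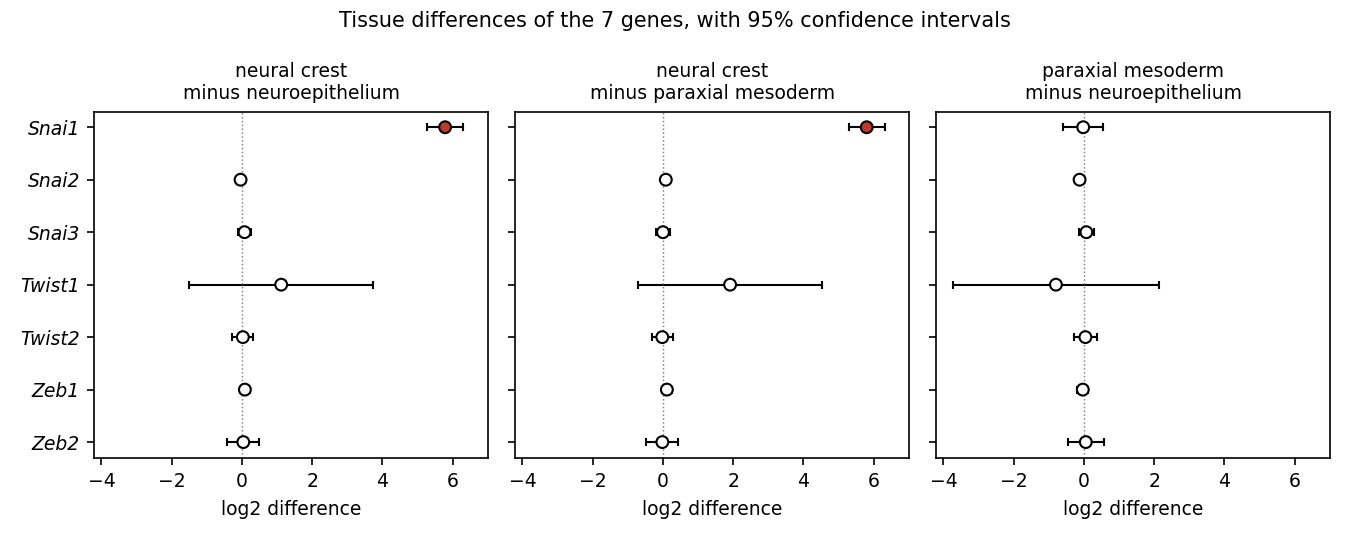
Log2 difference between tissues for each of the 7 genes, as limma estimates with 95% confidence intervals, in the 3 comparisons, with filled points for differences that passed. Snai1 lies at 5.78 and 5.80 in the crest comparisons, Twist1 has intervals that span 0, and the other 5 genes lie close to 0 with narrow intervals.

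Counted by array, 1 or 2 of the 7 genes were at least 4-fold high on each crest array, 1 (Twist1) on neuroepithelium array 2, and 0 on every other array. The share of all probes that high was 1.97%, 5.60%, 5.13%, 2.00% and 7.33% on crest arrays 1 to 5. It was 3.52%, 2.85% and 5.51% on the neuroepithelium arrays, and 7.88%, 3.90% and 1.83% on the mesoderm arrays. At shares this small, a count of 0 of the 7 genes on each mesoderm array does not stand apart from the background.

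The tissue order of the 7 genes can be read only for Snai1, where crest stood above the other tissues by far more than the largest SD of 0.38. For Twist1 the widest gap between tissue means (1.91) was smaller than the SD within crest (2.07). For Snai2 the widest gap was 0.12, between neuroepithelium and mesoderm, against a largest SD of 0.078. The widest gaps of Snai3, Twist2, Zeb1 and Zeb2 were all smaller than the largest SD within a tissue. The 5 genes other than Snai1 and Twist1 had log2 SDs of 0.07 to 0.25 over the 11 arrays. All 5 lay within 2-fold of 1 on every array, as did 71.9% of all probes, and the ratios do not tell silence from steady expression.

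Relatives of these families were as flat as most members. The list of Snail and Twist relatives holds 9 genes, among them the bHLH genes Ferd3l, Msc, Hand1 and Tcf21. All 9 lay within 2-fold of 1 on every array, and 0 passed in any comparison. Their median difference was 0.026 in crest against neuroepithelium and 0.012 against mesoderm, where the medians of all probes were -0.00052 and 0.0011. The largest of the 4 named differences was that of Ferd3l, at -0.21 (SE 0.09) from neuroepithelium. Tcf21 did not overlap between crest (0.997 to 1.12) and mesoderm (0.943 to 0.989), although 1.40% of all probes are likewise higher in crest with no overlap.

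The dimer partners of Twist and their Id inhibitors varied from array to array. Of 7 genes, 0 passed in either crest comparison, and the median differences were 0.19 and 0.79. Id2, which sequesters E-proteins, was low on all mesoderm arrays, at 0.146, 0.161 and 0.172. It stood at 1.84, 1.0, 0.404, 3.31 and 9.71 in crest and at 4.17, 1.76 and 1.34 in neuroepithelium. Crest and mesoderm did not overlap, with a difference of 3.56 (SE 0.90) and an adjusted p of 1 in limma. Id1 was low on crest array 1 (0.0244) and on paraxial mesoderm arrays 1 (0.0669) and 3 (0.212). Id3 was at 0.01, the lowest ratio in the table, on neuroepithelium array 2 and paraxial mesoderm array 1, and near 1 on the crest arrays (1.00 to 1.12). Tcf4, an E-protein gene and Twist partner, was high on neuroepithelium array 3 (12.3) and stayed between 0.905 and 1.17 in crest.

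Genes for the corepressors that Snail and Zeb proteins recruit showed no tissue difference that passed. Of 15 such genes, 14 had values, 10 of them with a positive difference in each crest comparison, and the medians were 0.35 and 0.27. Hdac1 and Hdac2, histone deacetylases, were low on scattered arrays outside crest. Hdac1 was at 0.0387 on neuroepithelium array 2 and at 0.0326 on paraxial mesoderm array 3, against 0.498 to 1.37 in crest. Hdac2 was at 0.123 on neuroepithelium array 1 and at 0.101 on paraxial mesoderm array 2, against 1.00 to 2.15 in crest. Eed, a Polycomb subunit, was low on crest arrays 1 to 3 (0.161, 0.179 and 0.170) and high on crest array 4 (6.18), so the crest arrays disagreed. It was also high on neuroepithelium arrays 2 (15.7) and 3 (15.5) and on paraxial mesoderm array 2 (13.0), and low on paraxial mesoderm array 3 (0.154). Its crest difference from neuroepithelium was -3.62 (SE 1.80, adjusted p = 1 in limma). Ajuba, a LIM adaptor of Snail, ran from 0.0895 to 3.94 within crest. Ctbp2, the corepressor bound by Zeb proteins, ran from 0.608 to 2.40 in crest and overlapped both other groups.

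Snail proteins are short-lived, and of 11 genes that control their turnover 10 had values and 0 passed in any comparison, with crest medians of -0.029 and -0.037. Gsk3a, one of the kinase genes whose products mark Snail for degradation, was high on crest arrays 2 (9.24) and 3 (9.72) and stayed between 0.804 and 1.00 on the other crest arrays. The ubiquitin ligase gene Btrc was high on crest array 2 (6.22) and paraxial mesoderm array 1 (10.2). Fbxo45 reached 8.22 on crest array 5, Mdm2 reached 20.5 on neuroepithelium array 3, and Fbxl14 ran from 0.566 to 1.63 in crest. In all 5 the crest values overlapped those of both other tissues.

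Of 24 genes of upstream signals, 0 passed, and the medians were -0.027 and 0.015. Smad4, the shared mediator of TGF-beta and BMP signals, stood at 23.9 on crest array 1, at 3.73 on array 2 and at 0.808 to 1.37 on the other crest arrays. Hif1a, the hypoxia factor that induces Snai1 and Twist1 in other settings, stood at 4.52, 4.72 and 13.9 on crest arrays 2, 3 and 5 and at 10.3 on paraxial mesoderm array 1. Bmp2 and Bmp4, crest-inducing ligands, were between 0.879 and 1.03 on all crest arrays. They were high on paraxial mesoderm array 2, at 56.9 and 19.4, and Bmp2 also on neuroepithelium array 1 (10.4). No signal of this list was high on all crest arrays as Snai1 was.

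Several genes that Snail factors are known to repress were high on the neuroepithelium arrays and near their reference on most crest arrays. Of 21 epithelial genes, 20 had values, and 18 had a lower mean in crest than in neuroepithelium. The median difference was -0.51, against -0.00052 over all probes, and 1 gene, Epcam, passed. The background of lower calls in that comparison was 0.0184%. In 6 genes the groups did not overlap, where 1.54% of all probes are lower in crest without overlap. Against mesoderm 16 of the 20 had a lower mean in crest, 0 passed, the median was -0.057, and 1 gene (Ocln, named after its values were seen) was lower without overlap, against 1.24% of all probes. In mesoderm, too, 17 of the 20 had a lower mean than in neuroepithelium, with a median difference of -0.37. There 1 gene, again Epcam, passed (adjusted p = 1.67e-10 in limma), where 0.0138% of all probes were called lower. In 3 genes mesoderm was lower without overlap, against 3.97% of all probes. Epcam, an epithelial adhesion molecule, stood at 41.9, 38.8 and 37.4 on the neuroepithelium arrays and between 0.944 and 1.03 on all other arrays. It fell by 5.32 (SE 0.05, adjusted p = 6.26e-11 in limma) from neuroepithelium to crest. Epcam was thus near 1 both in crest, where Snai1 was high, and in mesoderm, where Snai1 was not.

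The keratin gene Krt18 and the claudin gene Cldn7 followed Epcam except on 1 mesoderm array. Krt18 stood at 91.6, 72.4 and 78.6 in neuroepithelium, from 0.863 to 1.04 in crest, and at 0.825, 88.8 and 1.00 in mesoderm. Cldn7 stood at 67.6, 57.5 and 42.0 in neuroepithelium, from 0.819 to 1.00 in crest, and at 0.717, 92.2 and 1.05 in mesoderm. Crest and neuroepithelium did not overlap for either gene, with log2 differences of -6.46 (SE 1.33) and -5.94 (SE 1.36) and an adjusted p of 1 in limma. Without paraxial mesoderm array 2 both passed (adjusted p = 7.82e-08 and 8.83e-06 in limma), and the list then had 3 called genes. Without neuroepithelium array 2 the list had 2, Epcam and the polarity gene Crb3 (adjusted p = 2.25e-05 in limma). Crb3 stood at 43.9, 1.07 and 26.9 on the neuroepithelium arrays and did not pass with all arrays kept. Its call thus rests on leaving out the only neuroepithelium array on which it was near 1. Cdh1 and Cdh2, the cadherin genes often used to read the transition, were within 2-fold of 1 on all arrays, with crest differences from neuroepithelium of -0.052 (SE 0.06) and -0.037 (SE 0.07). They fall outside the naming rule and were chosen with their values seen. Krt8, the partner keratin, was high on all neuroepithelium arrays (33.9 to 35.2), on crest array 3 (36.3) and on paraxial mesoderm arrays 2 (34.4) and 3 (30.5). Crest array 3 also had the highest Snai1 ratio, 82.1. The number of epithelial genes at least 4-fold high was 6, 7 and 6 on the neuroepithelium arrays and 1, 0, 1, 0 and 0 on the crest arrays. It was 0, 7 and 1 on the mesoderm arrays, on all of which Snai1 was near 1. Surface ectoderm markers, a list that shares Krt8, Krt18 and Krt19 with this one, moved with it, with ratios that summed to 123 to 209 in neuroepithelium, 9.92 to 47.5 in crest and 8.62 to 265 in mesoderm, and their part in the epithelial differences was not tested.

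**Figure D3:**
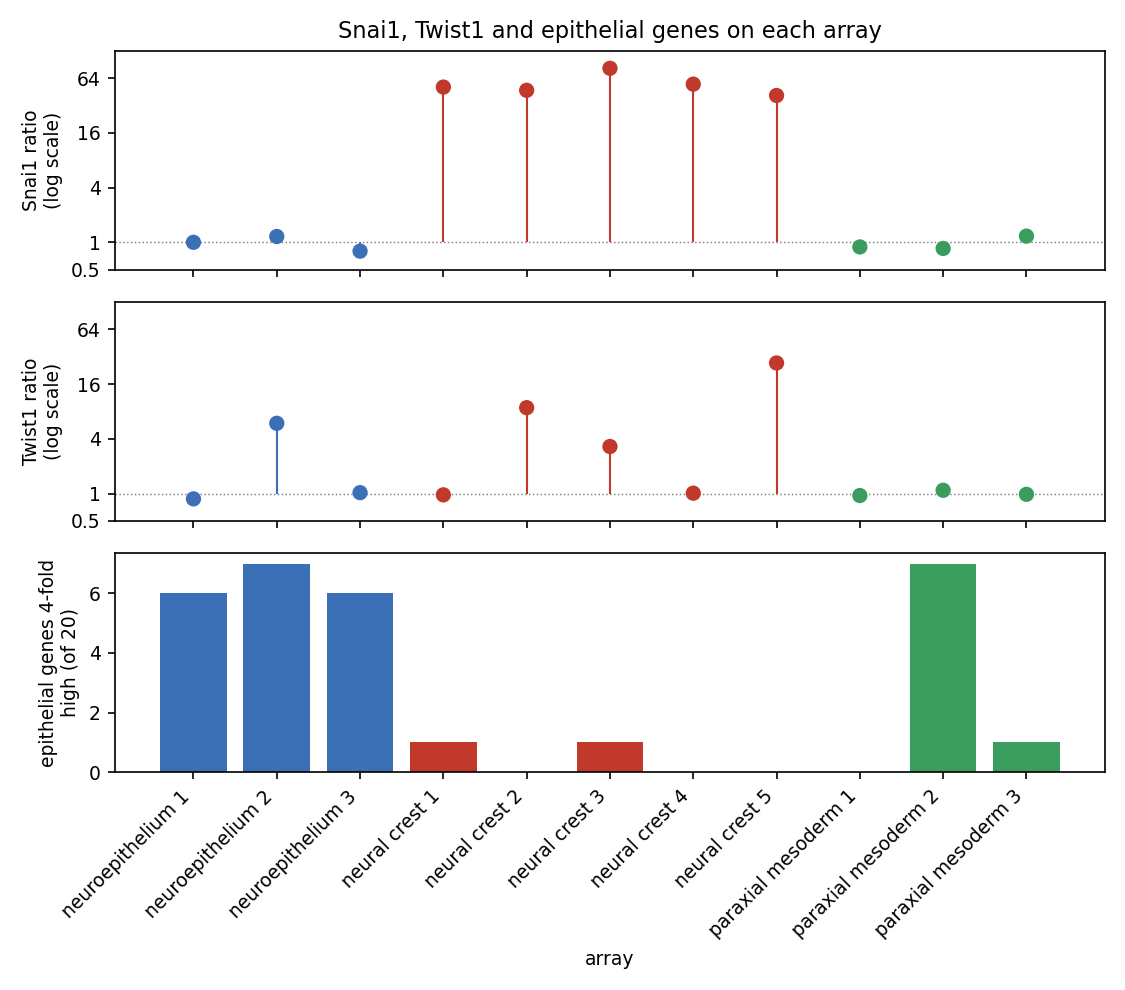
Deposited ratio (log scale) of Snai1 (top) and Twist1 (middle), and number of the 20 epithelial genes at least 4-fold high (bottom, bars from 0), on each of the 11 arrays, coloured by tissue. The 5 crest arrays, with Snai1 from 41.2 to 82.1, hold 0 or 1 such gene, the neuroepithelium arrays hold 6 or 7, and the mesoderm arrays, with Snai1 near 1, hold 0, 7 and 1.

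The promoters of Epcam, Cldn7 and Krt18 are shown because, of the epithelial genes listed, these 3 had the largest log2 differences of neuroepithelium from crest, and their windows hold the Snail E-box. Each is the 250 bases before a RefSeq start in GRCm38.p6, on the plus strand, with the motif in capitals. They lie at chr17:87635729-87635978 (Epcam), chr11:69965171-69965420 (Cldn7) and chr15:102027966-102028215 (Krt18).
Epcam: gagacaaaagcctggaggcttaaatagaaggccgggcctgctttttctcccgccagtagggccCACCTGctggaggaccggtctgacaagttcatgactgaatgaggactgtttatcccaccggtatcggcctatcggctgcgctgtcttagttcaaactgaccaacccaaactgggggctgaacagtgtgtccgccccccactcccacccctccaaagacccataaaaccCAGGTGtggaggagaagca
Cldn7: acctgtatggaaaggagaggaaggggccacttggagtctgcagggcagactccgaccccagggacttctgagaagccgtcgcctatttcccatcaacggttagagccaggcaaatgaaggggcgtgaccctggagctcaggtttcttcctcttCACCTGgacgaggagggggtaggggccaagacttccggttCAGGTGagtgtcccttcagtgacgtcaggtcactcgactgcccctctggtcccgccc
Krt18: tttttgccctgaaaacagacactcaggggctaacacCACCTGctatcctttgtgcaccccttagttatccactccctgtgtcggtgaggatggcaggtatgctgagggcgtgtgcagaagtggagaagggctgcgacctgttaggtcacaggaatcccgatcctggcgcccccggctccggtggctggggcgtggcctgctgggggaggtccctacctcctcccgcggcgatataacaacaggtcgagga
The motif begins 187 and 19 bases before the start of Epcam, 97 and 57 before that of Cldn7, and 214 before that of Krt18. The window of another Cldn7 start, chr11:69964529-69964778, holds none. RefSeq windows were given for 16 of the epithelial genes, and 11 of these (68.8%) hold the motif, against 5252 of 27025 genes overall (19.4%). By window, 13 of 23 (56.5%) hold it, against 17.2% of all windows. The genes were listed because they are known as Snail targets, so this share is no independent evidence. The wider E-box pattern CANNTG, which includes the motif, was in 65.2% of the epithelial windows and in 66.2% of all windows. Among crest transcription factor genes 1 of 11 windows held CAGGTG, and among mesenchymal genes 3 of 19.

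Regulators of the epithelial state were mostly flat. Of 10, 7 stayed within 2-fold of 1 on every array and 0 passed, with medians of -0.011 and 0.034. Grhl3, a grainyhead factor of surface ectoderm, was high on neuroepithelium array 2 (60.0), its relative Grhl2 on neuroepithelium array 3 (25.0), and the splicing regulator Esrp1 on neuroepithelium array 2 (5.64). All 3 stayed within 2-fold of 1 on the crest arrays. Klf4 and Elf3 showed crest differences from neuroepithelium of 0.33 (SE 0.16) and 0.12 (SE 0.10). The microRNA genes of the miR-200 family and others that target Zeb and Snail transcripts stayed near their references. All 9 with values, of 10 listed, were within 2-fold of 1 on all arrays, including Mir200a, Mir200c, Mir141 and Mir203, and 0 passed.

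No mesenchymal or migration gene passed. Of 25 genes, 18 had a higher mean in crest than in neuroepithelium and 16 than in mesoderm, and both medians were 0.028. Vim, the mesenchymal filament gene, was above its reference on all crest arrays, at 5.76, 2.49, 3.19, 5.35 and 4.67. It stood at 1.00, 4.42 and 0.264 in neuroepithelium and at 0.0526, 0.0598 and 5.18 in mesoderm. Crest overlapped both groups, and the differences of 1.96 (SE 1.51) and 4.01 (SE 1.51) did not pass. Rhob, a small GTPase gene active in delaminating crest, stood at 34.1, 15.1, 6.27, 53.0 and 0.907 in crest, at 0.709 to 0.841 in mesoderm and at 30.0, 1.55 and 1.00 in neuroepithelium. It did not overlap with mesoderm, with a difference of 3.83 (SE 1.47, adjusted p = 1 in limma). Rhoa was high on crest arrays 2, 3 and 5 (45.9, 40.4 and 53.5), the arrays on which Twist1 was more than 2-fold above 1, and also on paraxial mesoderm arrays 1 (57.0) and 2 (47.6), where Twist1 was not. Sparc was high on neuroepithelium array 1 (77.9) and paraxial mesoderm array 3 (59.4) and on no crest array.

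No crest transcription factor gene passed, although some were high on several crest arrays. Of 15, 12 had a higher mean in crest in each comparison, 0 passed, and the medians were 0.11 and 0.26. Sox9, which acts with Snail factors in crest delamination, stood at 1.33, 17.2, 1.46, 1.21 and 21.3 in crest and no higher than 1.03 on any other array. The groups did not overlap in either comparison, but the differences of 2.05 and 2.30 (SE 1.05 each) had an adjusted p of 1 in limma. Its highest crest arrays, 2 and 5, were also those of Twist1. Tfap2b was high on crest arrays 2 (27.9), 3 (21.4) and 5 (51.3) and on neuroepithelium array 3 (22.6), where Twist1 was at 1.02. Msx1, a border gene, was high on the neuroepithelium arrays (24.7, 46.1 and 7.97) and on crest array 3 (32.3) and paraxial mesoderm array 2 (34.9). Myc stood at 5.83, 4.42, 1.99, 1.42 and 4.97 in crest, against 0.063 to 0.0836 in neuroepithelium, with no overlap. Its mesoderm values of 1.57, 0.317 and 0.0636 overlapped crest. The difference of 5.51 (SE 0.92) from neuroepithelium had an adjusted p of 0.487 in limma.

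**Figure D4:**
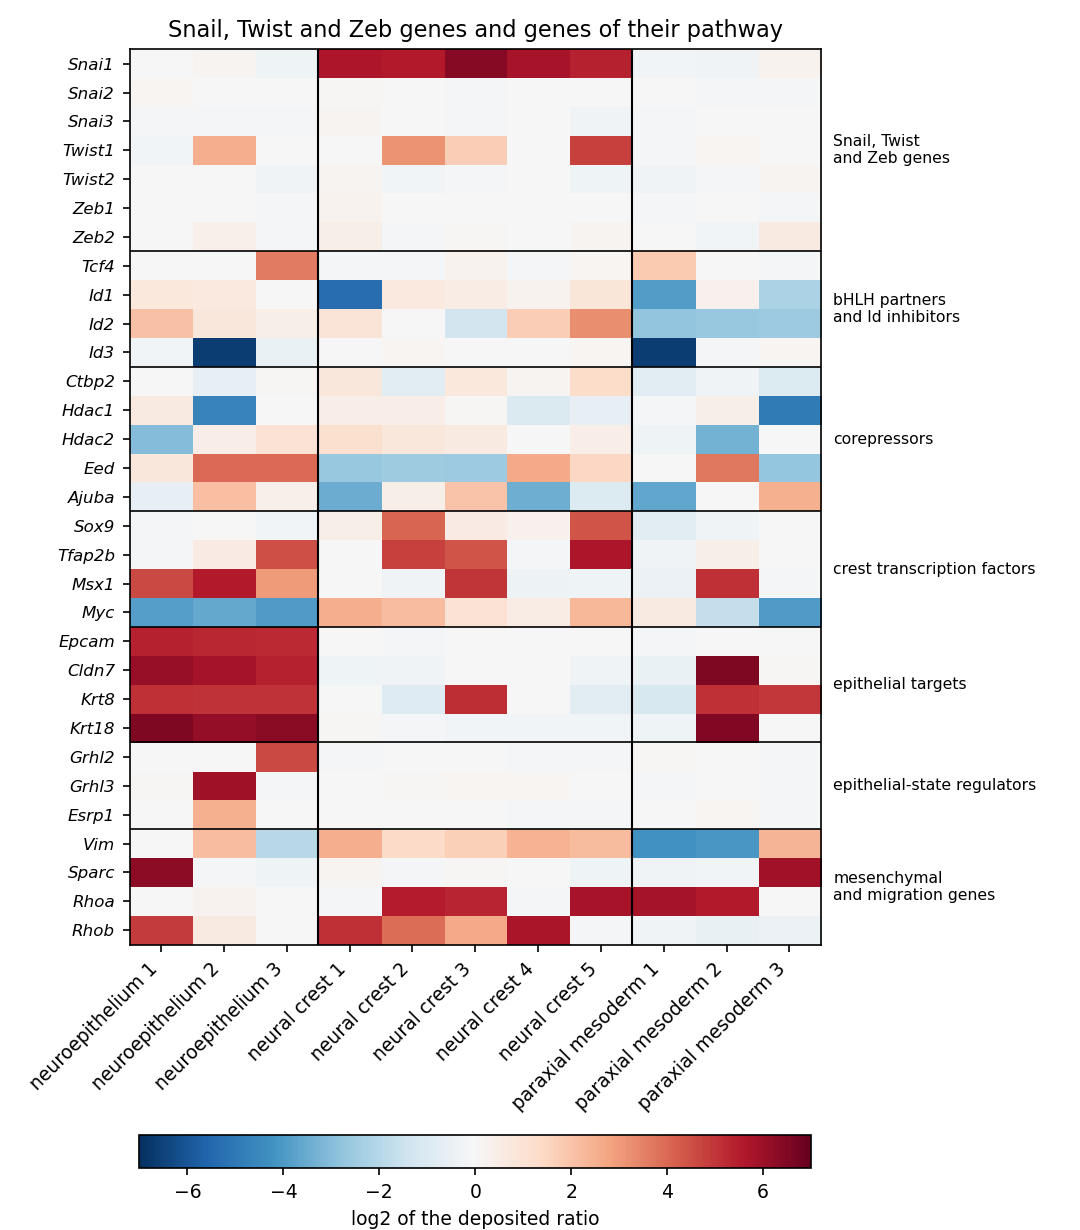
Log2 of the deposited ratio (colour, from -7 in blue to 7 in red) of the 7 genes and of the named genes of 6 lists (rows) on each of the 11 arrays (columns, with lines between tissues). Snai1 is red on all 5 crest arrays alone, and Epcam is red on all 3 neuroepithelium arrays alone.

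Genes whose ratios followed Snai1 or Twist1 most closely were ranked by Pearson's r of log2 ratios over the 11 arrays, among 5400 probes, as a description. For Snai1 the highest were Ddx47 (r = 0.98), Ppp2r2a (0.85), Ppp1r1a (0.84), Myc (0.82) and Gid8 (0.82). The crest rise of Ddx47 also passed in limma, by 5.20 from neuroepithelium (adjusted p = 0.00685) and by 5.30 from mesoderm (adjusted p = 0.0145). The call against neuroepithelium held in 22 of 24 alternative fits, and that against mesoderm in 16. With each of the 11 arrays left out in turn, they held 11 and 6 times. Ppp2r2a, a phosphatase subunit gene, was also high on paraxial mesoderm array 1 (9.90), Ppp1r1a was near 1 on crest array 1 (1.33), and Gid8 was near 1 on crest array 5 (0.837). For Twist1 the highest were Zfp521 (r = 0.93), Zfp119a (0.92), Rfc5 (0.90), Fars2 (0.88) and Coil (0.88). Zfp521, a zinc-finger gene, stood at 20.6 on neuroepithelium array 2, and at 1.10, 7.19, 7.73, 1 and 23.6 in crest. Both genes were more than 2-fold above 1 on the same 4 arrays. Of these, neuroepithelium array 2 and crest arrays 3 and 5 stood at 1 for only 3, 5 and 2 probes. The points share arrays, amplification and the depth of signal of each array, and the 11 arrays fall into 3 tissues, so such values carry no test.

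**Figure D5:**
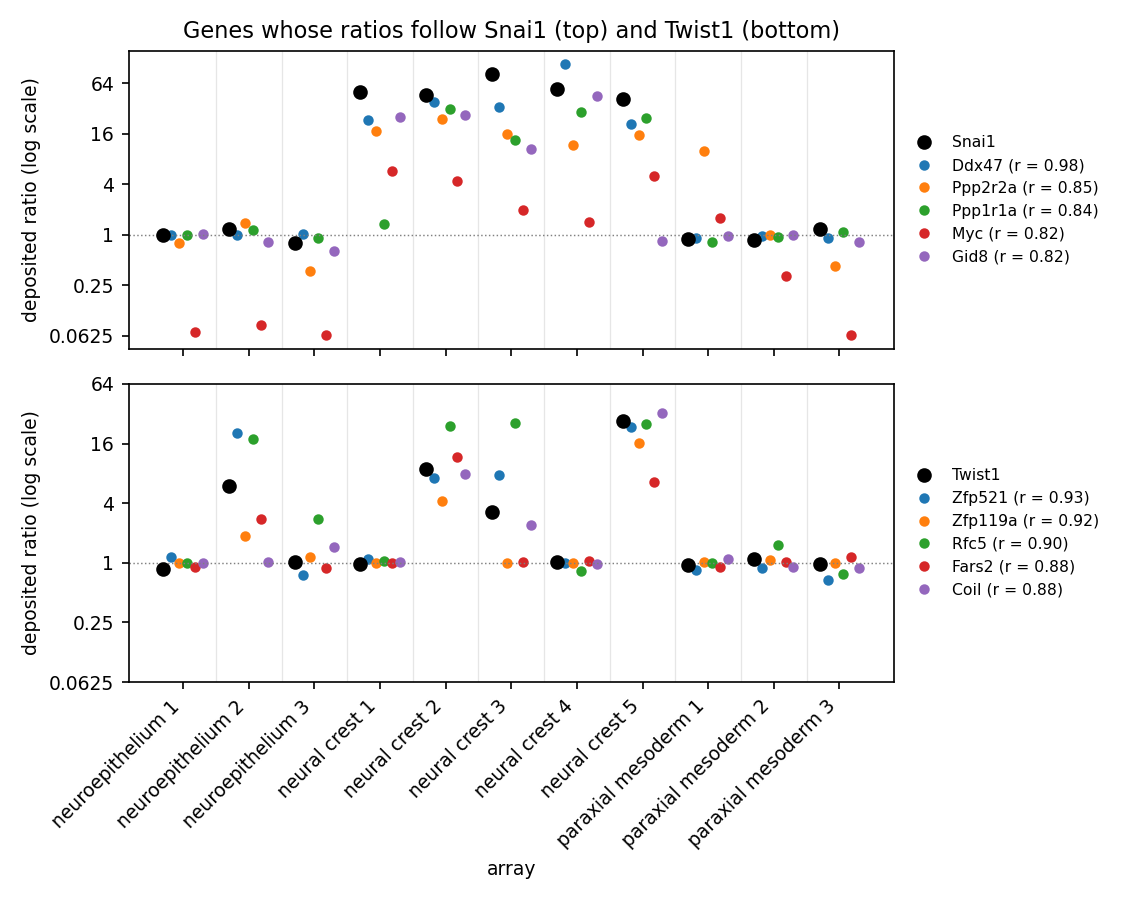
Deposited ratio (log scale) on each array for Snai1 and the 5 genes most like it (top) and for Twist1 and the 5 most like it (bottom), with Pearson's r over 11 arrays. Points are set side by side within each array, and arrays of a tissue have no order. Ddx47 is high on the same 5 crest arrays as Snai1, and Zfp521 and Twist1 are more than 2-fold above 1 on the same 4 arrays.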

How the data were processed

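The 11 arrays were grouped by their tissue labels. RMA and, as genome build, mm9 appear per the submitters' processing notes, with no version. Values were deposited as a linear ratio to a reference of each probe, by an unstated scaling of the authors. For 26131 of 28856 probes exactly 1 array stood at 1, so the reference equalled the value of that array. Neuroepithelium array 2 and crest arrays 3 and 5 stood at 1 for only 3, 5 and 2 probes. For Snai1 the array at 1 was neuroepithelium array 1, so its nearness to the reference there is by construction. Of 35557 probes listed, 28856 had values, of which 21789 had 1 symbol, 1621 several and 5446 none. Symbols were matched by Entrez identifier to RefSeq GRCm38.p6 for 21698 probes, and 0 changed. Each member had 1 probe. Other genes were represented by their highest-mean probe, which favours high ratios. Hdac1, Eed and Rhoa had 2 probes each, and only the highest-mean probe of each is described.

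Log2 ratios of the 21789 probes were fitted with limma 3.58.1 (R 4.3.3) over all 11 arrays as 3 group means, with lmFit and eBayes without a mean trend. Two-sided p-values were Benjamini-Hochberg adjusted over the 21789 probes per comparison, with a threshold of 0.05. The fit was also run on simulated data with normal noise. Such noise lacks the single-array jumps seen here, so that run does not vouch for these calls. No pseudocount was used. The members, lists and fit were chosen with earlier results of these data known. The rule named every member, the genes of each list that passed, the 3 with the largest difference in each crest comparison, and the 5 probes most like Snai1 and most like Twist1. Wider patterns were defined after values were seen. The number of arrays limits the precision. Alternatives covered the trend, normalization, filters, pseudocount, floor, samples, replicate block and each array left out.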

Additional observations from a re-analysis of the deposited data

Results flagged for a closer look

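Zeb1 on neural crest array 1 stood apart from the other crest arrays, with a ratio of 1.20 against 0.995 to 1.02. Its gap to the nearest array was 0.855 of the crest range, above the critical value of 0.71 for 5 samples. It was 1 of 7 crest groups examined this way, and chance sets apart about 5% of such groups.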

How the results depend on the processing

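Across 24 alternatives, Snai1 stayed higher in crest in all of them and passed in 23 in each crest comparison. The exception was the fit with a mean trend, where the differences of 5.78 and 5.80 did not pass and the number of genes among the 7 called in each crest comparison was 0. There the prior variance for Snai1 was 7.24, against 0.00936 without the trend and a residual variance of 0.104. Only 55 probes (0.252%) had a higher mean log2 ratio. With each array left out in turn, the Snai1 difference ran from 5.63 to 5.91 against neuroepithelium and from 5.65 to 5.94 against mesoderm, and it passed each time. No other gene of the 7 passed in any alternative. Replicate numbers gave no sign of pairing. After group means were removed, same-numbered arrays of different tissues correlated at -0.145 to 0.0525, and differently numbered ones at -0.173 to 0.162. Correlations this low cannot show whether arrays shared an embryo. With replicate numbers as a block the Snai1 differences were 5.90 and 5.92 (adjusted p = 0.0242 and 0.0397 in limma).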

Other observations

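The 5 genes near their reference (Snai2, Snai3, Twist2, Zeb1 and Zeb2) did not all have the same lowest crest array, but for all 5 the highest crest array was array 1. Of the 15663 probes within 2-fold of 1 on every array, 33.4% also had their highest crest value on array 1.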
